A study of Mus musculus with 24 samples.

Results

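The 38 genes described here are the cell cycle and proliferation genes of sorted macrophages: 3 D-type cyclins, 16 genes of the step into S phase and of DNA replication, and 19 genes of G2 and mitosis. They were taken by name from the 41388 genes of the count table, and all 38 were found. A cell that has left the cell cycle keeps most of these genes low. D-type cyclins and their kinases, driven by growth factor signals, start the way back: they relieve the block by the retinoblastoma protein, E2F factors then switch on the replication genes, and a later wave through the DREAM and MuvB complexes and FOXM1 switches on the mitotic genes. Tissue macrophages can renew by dividing in place or be replaced from blood monocytes, and the mitotic genes mark cells that are dividing at the time of sampling.

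Macrophages were sorted in bulk from dura mater, the tough membrane under the skull, and from diaphragm, the breathing muscle. The mice were wild-type C57BL/6 animals aged 17 weeks, at steady state and perfused through the heart, although the title of the series concerns RAG-1 deficient mice given T cells. Every sample is labelled with 1 of the subsets C1, C2 and C3, whose gates the sources used here do not give, and the labels do not say whether samples are separate animals or pools of animals. The table gave 9 dural libraries, 3 each marked P6, P5 and P4 and numbered 1, 3 and 4, and 7 diaphragm libraries known only by a number. What the marks stand for is not stated, no mark or number could be matched to a subset, and p-values therefore measure only the spread between these libraries. Diaphragm libraries have no mark and were described one by one in the order 3, 6, 9, 2, 8, 1 and 7.

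Library totals lay between 10457920 and 24077834 counts in dura and between 11053351 and 30132295 counts in diaphragm. Levels below are CPM, counts scaled to a common library total with TMM factors. A count of 0 in 1 library allows up to 3 counts, which was 0.11 to 0.305 CPM, counting error only. The 12 macrophage markers (Csf1r, C1qa, Adgre1 and others) summed to 28900 to 38800 CPM in every library, and Cd3e, a T cell gene, was at or below 1.69 CPM. Some libraries stood apart. The 10 fibroblast markers reached a sum of 15800 and 7620 CPM in diaphragm libraries 1 and 7, while the others of that tissue had 297 to 845 CPM. The 8 endothelial markers summed to 1260 and 1240 CPM in diaphragm libraries 1 and 7 and to 477 and 527 CPM in 2 and 8. Their sums were 174, 39.9 and 59.8 CPM in diaphragm libraries 3, 6 and 9 and 21.5 to 188 CPM in dura. Mpo, a gene of granulocyte precursors, reached 44.9 CPM in 1 of the P4 libraries, number 3, and at most 0.867 CPM elsewhere. P4 library 1 had counts for 15061 genes, the fewest in dura, against 17305 and 16992 in P4 libraries 3 and 4. It had 0 counts for the members Kif11 and Plk1, where P4 library 3 had 30 and 51 and P4 library 4 had 41 and 57.

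Set per kilobase of exon, the growth-signal cyclin Ccnd1 was the most abundant member in P6 libraries, with a mean level of 70.3 CPM per kilobase, followed by the replication clamp Pcna with 39 and the helicase subunits Mcm6 and Mcm3 with 25.1 and 24.2 CPM per kilobase. The same level was 35.6 for Ccnd1 and 25.7 for Pcna in P4 libraries. The lowest members in P6 libraries were the kinetochore genes Cenpf, with 0.392, and Cenpe, with 0.75 CPM per kilobase. In P4 libraries the lowest were Cenpe with 0.119 and the proliferation antigen gene Mki67 with 0.156 CPM per kilobase. The classes overlapped on this scale: in P6 libraries the mitotic cyclin gene Ccnb2 reached 14.4 CPM per kilobase, while the S-phase genes Cdc6 and Ccne1 had 1.09 and 1.25.

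**Figure D1:**
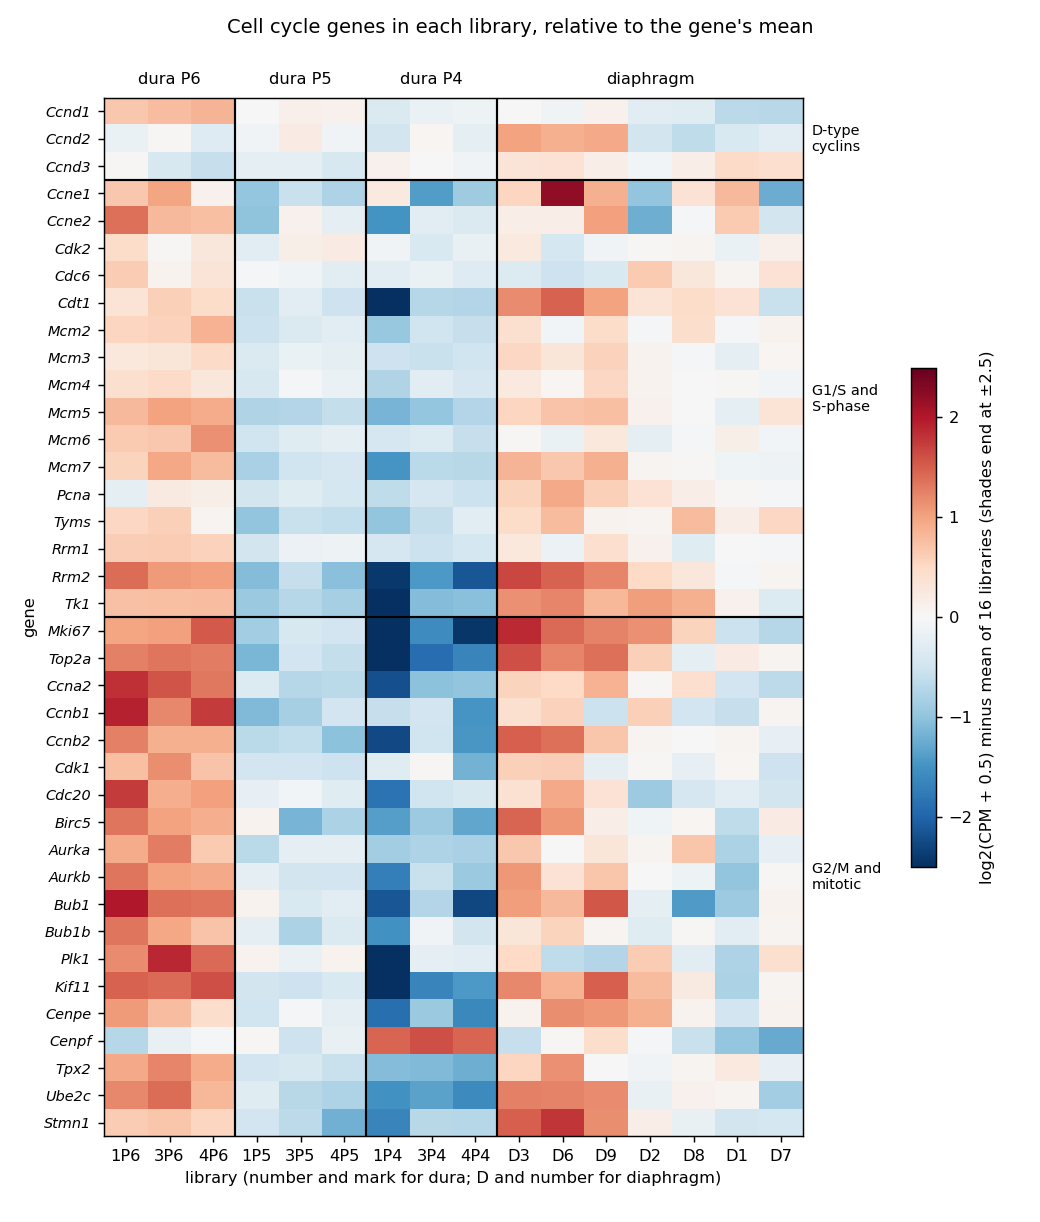
Level of each of the 38 genes (rows) in each of the 16 libraries (columns), as log2(CPM + 0.5) minus the mean of the gene over the 16 libraries. Red marks a level above that mean and blue one below it. The P6 libraries and diaphragm libraries 3, 6 and 9 are red for most S-phase and mitotic genes, the P4 libraries are blue, and Cenpf runs the other way.

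Before the values, the promoters show how the S-phase and mitotic classes differ in sequence. Windows of 300 bases, 250 before and 50 after the annotated start, were available from RefSeq (GRCm38.p6) for 30 of the 38 members, and both strands were searched for exact words. The cell cycle genes homology region, TTTGAA, which the MuvB complex binds, occurred in the windows of 11 of 15 mitotic members (73.3%), of 1 of 14 S-phase members (7.14%) and of 17.9% of all 32851 windows. The CCAAT box, CCAAT, bound by NF-Y, occurred in 14 of 15 mitotic members (93.3%), in 9 of 14 S-phase members (64.3%) and in 37.4% of all windows. An E2F word, meaning TTCCCGC or TTCGCGC or TTGCCGC or TTGGCGC, occurred in 3 of 15 mitotic members (20%), in 9 of 14 S-phase members (64.3%) and in 9.57% of all windows. A window holding a word was counted once, words may overlap each other, and a word is a match of letters, not evidence of binding.

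Printed first are the windows of the mitotic members Mki67 (chr7:135716330-135716629, minus strand), Top2a (chr11:99024140-99024439, minus strand) and Cdk1 (chr10:69352863-69353162, minus strand), shown as examples of mitotic genes that rose in P6 libraries by more (Mki67, Top2a) and by less (Cdk1). Capitals mark TTTGAA and CCAAT on either strand, so that TTCAAA and ATTGG are the same words read on the other strand. These 3 were picked from members whose windows hold both words, so the presence of the words in them is no result. The windows of the mitotic members Birc5 and Ccnb1 hold no TTTGAA. Each of the 3 printed windows holds 2 copies of TTTGAA and at least 3 CCAAT boxes. Mki67 and Cdk1 also hold 1 and 2 E2F words, left in lower case.
Mki67: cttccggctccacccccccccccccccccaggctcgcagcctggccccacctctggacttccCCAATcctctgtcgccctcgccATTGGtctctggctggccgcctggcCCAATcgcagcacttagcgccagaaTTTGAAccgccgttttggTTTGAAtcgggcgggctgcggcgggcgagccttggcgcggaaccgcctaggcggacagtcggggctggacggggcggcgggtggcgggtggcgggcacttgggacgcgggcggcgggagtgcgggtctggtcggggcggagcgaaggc
Top2a: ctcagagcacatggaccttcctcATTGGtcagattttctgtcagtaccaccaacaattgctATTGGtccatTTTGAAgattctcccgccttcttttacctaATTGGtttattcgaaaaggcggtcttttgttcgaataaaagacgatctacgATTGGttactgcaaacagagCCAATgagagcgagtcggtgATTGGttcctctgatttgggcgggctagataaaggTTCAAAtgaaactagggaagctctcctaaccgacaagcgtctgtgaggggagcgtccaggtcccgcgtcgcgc
Cdk1: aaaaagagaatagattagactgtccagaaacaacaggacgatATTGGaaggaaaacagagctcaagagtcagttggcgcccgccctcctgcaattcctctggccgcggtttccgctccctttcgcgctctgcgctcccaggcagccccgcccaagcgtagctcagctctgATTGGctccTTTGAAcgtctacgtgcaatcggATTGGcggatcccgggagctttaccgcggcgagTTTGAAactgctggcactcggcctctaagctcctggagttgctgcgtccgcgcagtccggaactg

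Shown for contrast are the windows of the S-phase members Rrm2 (chr12:24708004-24708303, plus strand) and Mcm5 (chr8:75109259-75109558, plus strand), where capitals mark only the E2F words on either strand. In Mcm5 the capitals TTCGCGCCAA are 2 overlapping words on opposite strands. Both were picked from S-phase members whose windows hold an E2F word, so its presence in them is no result. The windows of Tk1, Tyms, Pcna, Mcm2 and Ccne1 hold no E2F word. Neither printed window holds TTTGAA, and their CCAAT boxes are left in lower case.
Rrm2: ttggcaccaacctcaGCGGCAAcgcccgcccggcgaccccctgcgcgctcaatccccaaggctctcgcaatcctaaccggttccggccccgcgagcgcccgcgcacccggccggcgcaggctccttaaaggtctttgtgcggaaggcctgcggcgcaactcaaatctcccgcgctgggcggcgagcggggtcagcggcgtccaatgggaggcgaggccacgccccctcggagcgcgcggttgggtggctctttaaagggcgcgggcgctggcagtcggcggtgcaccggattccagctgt
Mcm5: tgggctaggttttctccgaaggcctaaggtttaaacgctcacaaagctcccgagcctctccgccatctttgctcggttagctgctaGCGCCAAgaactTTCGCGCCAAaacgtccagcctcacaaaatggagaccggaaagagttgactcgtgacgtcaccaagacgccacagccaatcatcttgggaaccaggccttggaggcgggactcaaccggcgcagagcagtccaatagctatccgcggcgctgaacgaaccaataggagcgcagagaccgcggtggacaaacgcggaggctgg

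Cenpf (chr1:189688037-189688336, minus strand), chosen after its values were seen, is given because its level ran against the other mitotic genes. Capitals mark 1 copy of TTTGAA and 2 CCAAT boxes, the same words as in Mki67, Top2a and Cdk1, and no E2F word was found.
Cenpf: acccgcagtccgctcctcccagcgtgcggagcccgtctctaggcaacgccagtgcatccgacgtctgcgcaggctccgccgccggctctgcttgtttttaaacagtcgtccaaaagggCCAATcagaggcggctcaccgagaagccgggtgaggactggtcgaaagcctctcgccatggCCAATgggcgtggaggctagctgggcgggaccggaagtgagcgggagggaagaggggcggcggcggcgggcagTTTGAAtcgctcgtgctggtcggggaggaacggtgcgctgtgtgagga

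P6 was compared with P4 and with P5, and P5 with P4, among dural libraries, in 1 edgeR quasi-likelihood fit over all 9 libraries and 13239 genes, with Benjamini-Hochberg adjustment over all of them and a threshold of 0.05. The 3 comparisons share libraries, so each is given with its own values. All 38 members passed the filter on low counts, also when the P6 libraries were left out of it.

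In P6 libraries the cell cycle genes were higher than in P4 libraries almost throughout. Of 38 members, 32 rose, where 16.1% of all genes tested rose, and 1 fell, where 17.2% of all genes fell (33.3% in either direction). All 18 of the other mitotic genes rose beside the fall of Cenpf, 13 of 16 S-phase genes rose, and of the 3 D-type cyclins Ccnd1 rose. The median log2 fold change was 2.41 for mitotic genes, 1.33 for S-phase genes and 0.07 for D-type cyclins, against 0 for all genes tested. For 34 members every P6 library lay above every P4 library, as it did for 22.8% of all genes. Without P4 library 3, the library with Mpo, 31 members rose and Cenpf fell, and without P6 library 1 a second member, Ccnd3, fell.

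Against P5 libraries 28 of 38 members rose in P6 libraries, where 8.54% of all genes rose, and 0 fell, where 9.05% of all genes fell (17.6% in either direction). The count of 0 that fell was the same at an unadjusted p under 0.05 in edgeR, in DESeq2 and in limma-voom. They were 16 mitotic genes, 11 S-phase genes and Ccnd1, and the medians were 1.63, 1.14 and 0 in the order mitotic, S-phase and D-type. P5 and P4 libraries lay closer together: 5 of 38 members rose in P5 libraries, where 3.3% of all genes rose, and 1 fell, where 4.34% of all genes fell (7.64% in either direction). Those that rose were Mki67, Top2a, Tpx2, Ube2c and Rrm2, the one that fell was Cenpf, and the medians were 0.71, 0.27 and 0.23. The count of 5 fell to 1 without P5 library 3, to 2 without P5 library 4 or P4 library 4, and to 3 without P5 library 1 or P4 library 1.

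**Figure D2:**
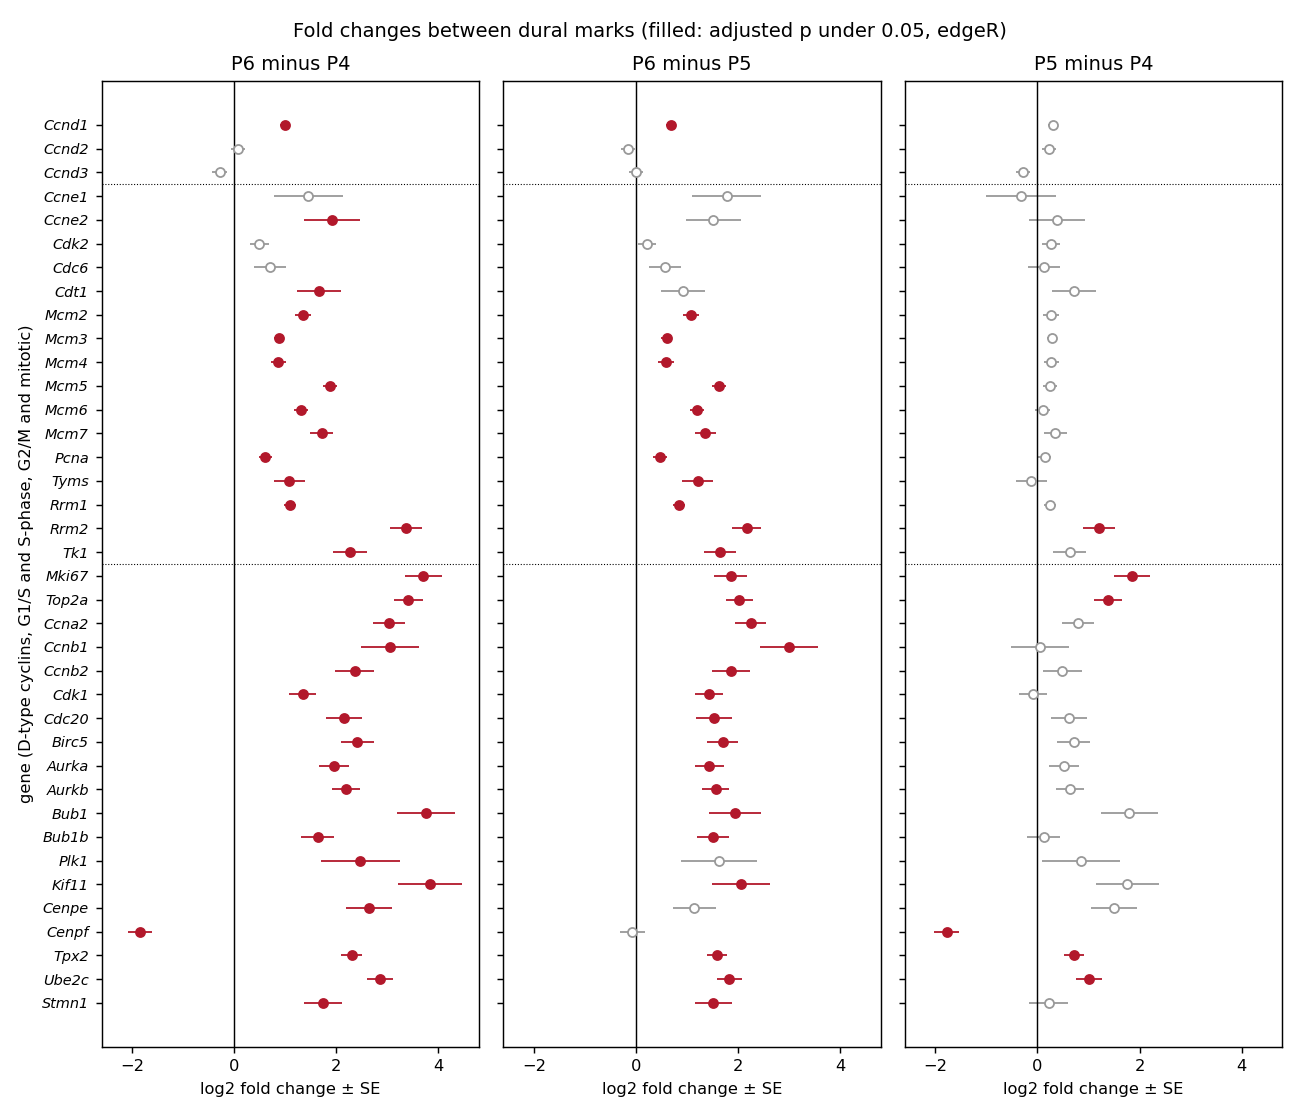
Log2 fold change with its standard error for each gene (rows, grouped by class with dotted lines between) in the comparisons of P6 with P4, P6 with P5 and P5 with P4. Filled red points passed an adjusted p of 0.05 in edgeR and open grey points did not. In the comparison of P6 with P4 all mitotic genes except Cenpf lie above 1.3, while Ccnd2 and Ccnd3 lie at 0.07 and -0.29.

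The summed level of the 19 mitotic genes shows the step by library. It was 421, 399 and 366 CPM in P6 libraries, 124, 119 and 118 CPM in P5 libraries and 65.7, 113 and 90.3 CPM in P4 libraries, and in diaphragm 382, 345, 311, 207, 171, 146 and 153 CPM in the order given above. No P6 library overlapped with P5 or P4, diaphragm library 3 lay within the range of P6, and all diaphragm libraries lay above the P5 and P4 libraries. The 16 S-phase genes summed to 677, 729 and 763 CPM in P6 libraries, 343, 403 and 395 CPM in P5 libraries and 295, 340 and 332 CPM in P4 libraries, and the diaphragm libraries ran from 491 to 729 CPM. Since these are bulk samples, fewer dividing cells and less RNA per dividing cell cannot be told apart.

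**Figure D3:**
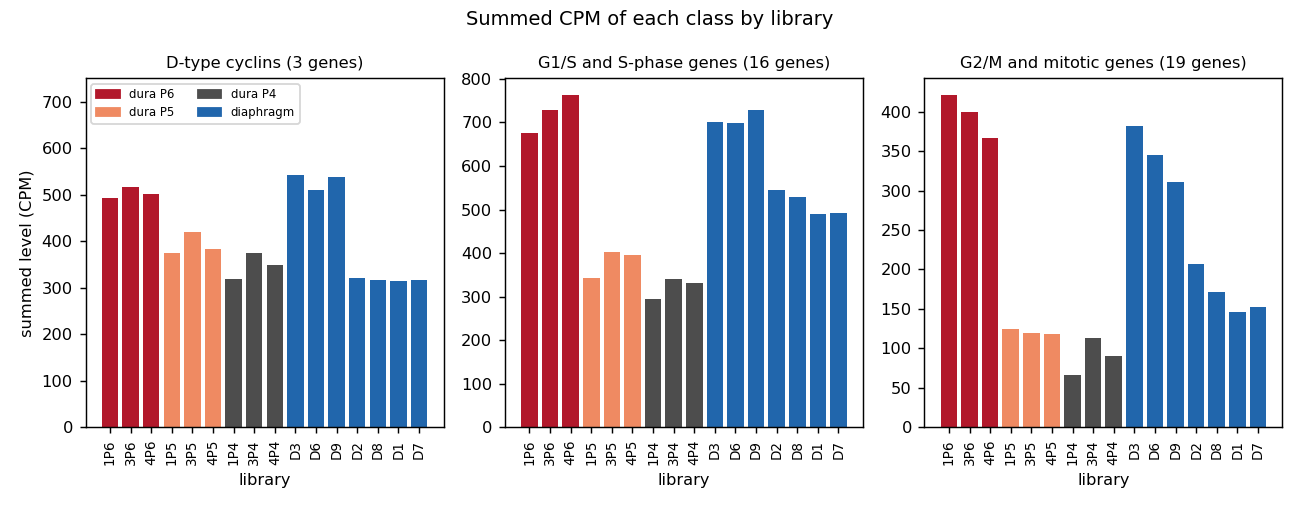
Summed CPM of each class (bars, 1 per library, axes from 0 and different between panels) in dural libraries marked P6, P5 and P4 and in diaphragm libraries (D and number). Mitotic genes sum to 366 CPM or more in each P6 library and to at most 124 CPM in each P5 and P4 library, and diaphragm libraries run from 382 CPM in number 3 to 146 CPM in number 1.

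Mki67, whose antigen coats the chromosomes of dividing cells, had 17.8, 18.4 and 26.2 CPM in P6 libraries, 4.57, 6.49 and 6.15 CPM in P5 libraries and 0.867, 2.63 and 1.22 CPM in P4 libraries. The groups did not overlap in any pair of marks. Mki67 rose by 3.7 ± 0.36 (log2 fold change ± SE) in P6 against P4 (13-fold, adjusted p = 4.7e-06), by 1.86 ± 0.32 in P6 against P5 (adjusted p = 0.00139) and by 1.85 ± 0.36 in P5 against P4 (adjusted p = 0.00618, edgeR). Without P4 library 3 the difference of P6 against P4 was 4.29. In the diaphragm Mki67 was at 33.3, 24.4 and 21.3 CPM in libraries 3, 6 and 9, at 20 and 13.2 CPM in 2 and 8, and at 5.9 and 5.15 CPM in 1 and 7.

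Top2a, the topoisomerase that untangles sister chromatids, had the highest mitotic level in P6 libraries before any scaling for length. Its levels were 82.7, 87.5 and 83.2 CPM in P6 libraries, 15.1, 24.5 and 22.4 CPM in P5 libraries and 3.99, 8.76 and 10.6 CPM in P4 libraries. Again no pair of marks overlapped, with differences of 3.41 ± 0.29 for P6 against P4, 2.03 ± 0.27 for P6 against P5 and 1.38 ± 0.28 for P5 against P4 (adjusted p = 6.23e-06, 0.000387 and 0.0131, edgeR). The last of these did not pass without P5 library 3 or 4 (adjusted p = 0.0579 and 0.0623, edgeR). Diaphragm libraries 3, 6 and 9 had 106, 79.8 and 89.6 CPM and the others between 28.7 and 51.6 CPM.

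Ccna2 and Ccnb1 encode the cyclin of S phase and G2 and the mitotic cyclin. Ccna2 had 34.8, 29 and 24.1 CPM in P6 libraries, 7.28, 5.54 and 5.71 CPM in P5 libraries and 1.65, 4.38 and 4.49 CPM in P4 libraries, and it rose by 3.03 ± 0.31 against P4 and 2.25 ± 0.3 against P5 (adjusted p = 7.38e-06 and 0.000156). The P5 libraries lay above the P4 libraries for Ccna2 without passing (0.79 ± 0.31, adjusted p = 0.166, edgeR). Its exons share 510 bases with Exosc9 on the other strand. Ccnb1 was low, with 7.7, 4.44 and 6.72 CPM in P6 libraries, 0.508, 0.713 and 1.06 CPM in P5 libraries and 0.954, 1.06 and 0.277 CPM in P4 libraries. P5 and P4 overlapped for Ccnb1, and its differences of 3.05 ± 0.57 (P6 against P4, adjusted p = 0.00107) and 3 ± 0.57 (P6 against P5, adjusted p = 0.0025, edgeR) were nearly equal.

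Cdk1, the kinase that binds both cyclins, had 21.6, 29.2 and 21.2 CPM in P6 libraries, 8.97, 9.03 and 8.72 CPM in P5 libraries and 10.2, 13 and 5.32 CPM in P4 libraries. P5 lay within the range of P4, and P6 above both, by 1.34 ± 0.27 against P4 and 1.43 ± 0.27 against P5 (adjusted p = 0.00188 and 0.00268, edgeR). Birc5, the survivin gene of the chromosomal passenger complex, had 24.3, 19.2 and 17.9 CPM in P6 libraries, 9.98, 3.88 and 5.18 CPM in P5 libraries and 3.3, 4.76 and 3.49 CPM in P4 libraries, with P6 above P4 by 2.41 ± 0.32 (adjusted p = 7.7e-05). Stmn1, which destabilizes microtubules, had 8.71, 9.04 and 8 CPM in P6 libraries, 3.72, 3.25 and 2.08 CPM in P5 libraries and 1.39, 3.13 and 3.1 CPM in P4 libraries. It rose in P6 against P4 by 1.74 ± 0.37 and against P5 by 1.52 ± 0.37 (adjusted p = 0.00274 and 0.0123), the second of which did not pass without P5 library 4 (1.3, adjusted p = 0.0654, edgeR).

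The largest differences between P6 and P4 belonged to genes close to 0 in P4. Kif11, the motor that separates spindle poles, had 20.3, 19.6 and 22.3 CPM in P6 libraries, 4.91, 4.75 and 5.22 CPM in P5 libraries and 0, 1.88 and 2.27 CPM in P4 libraries. Its difference of 3.83 ± 0.63 for P6 against P4 (adjusted p = 0.00109) was the highest of all members (4.8 in limma-voom), and the one of 2.06 ± 0.57 against P5 (adjusted p = 0.0327) lost its call when any of the 6 P6 or P5 libraries was left out and in DESeq2 (adjusted p between 0.0646 and 0.134). Bub1, a spindle checkpoint kinase, had 14.5, 9.27 and 9 CPM in P6 libraries, 3.47, 2.38 and 2.61 CPM in P5 libraries and 0.347, 1.75 and 0.277 CPM in P4 libraries, a difference of 3.75 ± 0.57 (P6 against P4, adjusted p = 0.000211, edgeR). Without P4 library 3 it was 5.12, above that of Kif11 (4.04), so which of them came highest rested on that library. Against P5 it was 1.95 ± 0.51 (adjusted p = 0.0179), with no call without P6 library 1 or P5 library 3 or 4 (adjusted p between 0.0683 and 0.0805).

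Ube2c, which feeds ubiquitin to the anaphase-promoting complex, had 19.8, 22.8 and 15.2 CPM in P6 libraries, 6.68, 4.99 and 4.65 CPM in P5 libraries and 2.6, 3 and 2.44 CPM in P4 libraries. Its exons share 592 bases with those of Tnnc2, a muscle gene on the other strand, and the kit does not keep strand. Exons of 11 members overlap an antisense gene in this way, by up to 1100 bases for Ccnd1, 740 for Ccnd2 and 609 for Ccne2, and reads of both strands cannot be told apart there. Tnnc2 was listed at 0 in all dural libraries and at no more than 0.545 CPM in diaphragm. The 7 skeletal muscle markers, Tnnc2 not among them, summed to 121 to 297 CPM in diaphragm. Where reads from the shared bases were counted was not tested. The spindle assembly factor gene Tpx2 had 19.7, 23.8 and 19.4 CPM in P6 libraries, 7.02, 7.37 and 6.6 CPM in P5 libraries and 4.42, 4.38 and 3.99 CPM in P4 libraries. Both rose in P6 against P4, Ube2c by 2.85 ± 0.26 and Tpx2 by 2.3 ± 0.2 (adjusted p = 2.17e-06 and 1.53e-06, edgeR). In P5 against P4 the differences were 1.01 ± 0.25 and 0.72 ± 0.2 (adjusted p = 0.0269 and 0.0442, edgeR). Tpx2 lost that call when any of the 6 libraries was left out, and Ube2c when any but P5 library 4 was (adjusted p between 0.0537 and 0.149, edgeR).

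The remaining mitotic members were Ccnb2, Cdc20, Aurka, Aurkb, Bub1b, Plk1 and Cenpe, which encode the second B-type cyclin, an activator of the anaphase-promoting complex, both Aurora kinases, a checkpoint protein, Polo-like kinase and a kinetochore motor. All 7 rose in P6 against P4, by 1.63 (Bub1b) to 2.64 (Cenpe) on the log2 scale, and 5 rose against P5. Without P4 library 3 the difference of Ccnb2 was 3.01, against 2.36 with all libraries. Plk1 and Cenpe did not pass against P5 (adjusted p = 0.182 and 0.0828). Plk1 was at 0 CPM in P4 library 1, and its call against P4 (2.47 ± 0.77, adjusted p = 0.0339) was lost without P6 library 3 or 4 or P4 library 3 or 4, in DESeq2 and with only the P6 and P4 libraries fitted (adjusted p between 0.0552 and 0.0911, edgeR and DESeq2), while limma-voom gave 3.52 (adjusted p = 0.0139).

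Cenpf, a large kinetochore and nuclear matrix gene, went the other way. Its levels were 4.35, 6.47 and 7.32 CPM in P6 libraries, 7.61, 5.07 and 6.52 CPM in P5 libraries and 21.4, 23.7 and 21.2 CPM in P4 libraries. P6 and P5 overlapped and all P4 libraries stood above both. Cenpf fell by 1.85 ± 0.24 on the log2 scale in P6 against P4 and by 1.78 ± 0.24 in P5 against P4 (adjusted p = 5.1e-05 and 0.000484), and the P6 against P5 difference was -0.07 ± 0.24 (adjusted p = 0.884, edgeR). Both falls kept their call in every alternative run. No annotated gene overlaps the exons of Cenpf (GRCm38, chromosome 1, 189640606 to 189688086, minus strand). The 10 fibroblast markers were also highest in P4 within dura, with sums of 255 to 399 CPM in P6, 592 to 786 CPM in P5 and 2090 to 3790 CPM in P4 libraries. Unlike Cenpf, their sums did not overlap between P6 and P5. In diaphragm libraries 1 and 7, where those markers were highest, Cenpf was lowest, at 3.54 and 2.83 CPM. A link between Cenpf and these markers was not tested.

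Among the S-phase genes the largest differences between P6 and P4 belonged to Rrm2 and Tk1, enzymes that make DNA precursors. Rrm2, the regulated subunit of ribonucleotide reductase, had 25.9, 20.4 and 19.9 CPM in P6 libraries, 4.23, 6.18 and 4.36 CPM in P5 libraries and 1.39, 3.19 and 1.77 CPM in P4 libraries. It rose by 3.36 ± 0.31 against P4 and 2.17 ± 0.29 against P5 (adjusted p = 2.65e-06 and 0.00016). P5 lay above P4 in every library, by 1.2 ± 0.31 (adjusted p = 0.03), but that call was lost without P5 library 3 or 4 or P4 library 1 or 4 (adjusted p between 0.0549 and 0.132, edgeR).

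Tk1, thymidine kinase, had 19.8, 20.2 and 20.5 CPM in P6 libraries, 5.92, 6.97 and 6.44 CPM in P5 libraries and 1.65, 5.26 and 5.43 CPM in P4 libraries. Every P6 library was above every other dural library, by 2.27 ± 0.33 against P4 and 1.65 ± 0.32 against P5 (adjusted p = 0.00015 and 0.00304, edgeR). Tyms, thymidylate synthase, had 10, 10.7 and 7.19 CPM in P6 libraries, 3.21, 4.51 and 4.32 CPM in P5 libraries and 3.21, 4.38 and 5.54 CPM in P4 libraries. It rose by 1.08 ± 0.3 and 1.21 ± 0.3 (adjusted p = 0.0137 and 0.0143); without P6 library 3 neither passed, and without P5 library 1 the second did not (adjusted p between 0.0555 and 0.0637, edgeR). A named pseudogene exists for Tyms, as for Pcna, Ccnd3, Ccnb1 and Ccnb2, so reads shared with a copy make these levels uncertain. Rrm1, the constant reductase subunit, differed less than Rrm2, by 1.09 ± 0.12 against P4 (adjusted p = 1.1e-05).

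All 6 subunits of the MCM helicase, which opens DNA at origins, rose in P6 against both P4 and P5. Mcm5 had 73.1, 84.6 and 79.8 CPM in P6 libraries, 24.6, 24.7 and 27.3 CPM in P5 libraries and 18.4, 21.2 and 25 CPM in P4 libraries, and had the largest difference of the 6, 1.88 ± 0.14 against P4 and 1.63 ± 0.14 against P5 (adjusted p = 3.27e-07 and 2.78e-06, edgeR). Mcm2 had 50.7, 52 and 63.4 CPM in P6 libraries, 23.8, 26.8 and 28.2 CPM in P5 libraries and 17.7, 24.5 and 23 CPM in P4 libraries. Although the subunits work as 1 complex, their differences between P6 and P4 ran from 0.86 (Mcm4) to 1.88 (Mcm5).

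Mcm4 and Mcm3 marked the low end of the helicase. Mcm4 had 54, 56.9 and 49.9 CPM in P6 libraries, 31, 39.3 and 36.6 CPM in P5 libraries and 24.1, 34.1 and 30.6 CPM in P4 libraries, a difference of 0.86 ± 0.15 against P4 and 0.59 ± 0.15 against P5 (adjusted p = 0.000529 and 0.013), the second not passing without P6 library 3 (adjusted p = 0.0587, edgeR). Mcm3 had 85.4, 87.6 and 99.3 CPM in P6 libraries, 55.8, 63.7 and 61.1 CPM in P5 libraries and 49.7, 48.6 and 50.2 CPM in P4 libraries, a difference of 0.88 ± 0.1 against P4 (adjusted p = 2.58e-05). In each case the P6 libraries lay above all others of dura.

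Pcna, the sliding clamp of the replication fork, had the smallest difference of the members called, with 75.9, 105 and 99.3 CPM in P6 libraries, 64.6, 72.6 and 66 CPM in P5 libraries and 57.5, 66.3 and 61.4 CPM in P4 libraries. It rose by 0.61 ± 0.13 against P4 (adjusted p = 0.00243) and by 0.47 ± 0.13 against P5 (adjusted p = 0.0215), the second not passing without P6 library 3 or 4 or P5 library 1 or 4 (adjusted p between 0.0646 and 0.111, edgeR). Cdt1, which loads the helicase, rose in P6 against P4 by 1.66 ± 0.44 (adjusted p = 0.0143) and had 23.9 ± 2.21 CPM in P6 and 12.5 ± 1.44 CPM in P5 libraries (SD, n = 3 each) without passing there (adjusted p = 0.178, edgeR).

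Cdk2, the kinase of E-type cyclins, had 25.7, 19.1 and 22.8 CPM in P6 libraries, 15.4, 20.7 and 21.6 CPM in P5 libraries and 17.6, 14.3 and 16.3 CPM in P4 libraries, and no comparison passed (adjusted p = 0.0518 for P6 against P4, edgeR), although every P6 library lay above every P4 library. Its P6 against P4 difference of 0.49 ± 0.18 did pass without P6 library 3 (0.6, adjusted p = 0.0408), in limma-voom (adjusted p = 0.048) and with the stricter filter (adjusted p = 0.0494, edgeR). Ccne1, an E-type cyclin, stayed between 0.438 and 4.36 CPM in dura, with 3.43, 4.36 and 2.15 CPM in P6 libraries, 0.761, 1.19 and 0.937 CPM in P5 libraries and 2.43, 0.438 and 0.831 CPM in P4 libraries. Its P6 against P4 difference passed without P4 library 1 (2.37, adjusted p = 0.0154, edgeR). The licensing factor gene Cdc6 passed in none of the 3 comparisons (adjusted p = 0.107 for P6 against P4, edgeR), again with every P6 library above every P4 library. Ccne2 rose in P6 against P4 by 1.91 ± 0.55 (adjusted p = 0.0158), a call that was lost without P6 library 1 (adjusted p = 0.0533, edgeR).

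The D-type cyclins parted ways. Ccnd1 had 310, 331 and 352 CPM in P6 libraries, 196, 213 and 211 CPM in P5 libraries and 152, 174 and 178 CPM in P4 libraries, and rose by 0.99 ± 0.09 against P4 and 0.68 ± 0.09 against P5 (adjusted p = 2.67e-06 and 0.000154, edgeR). Ccnd2 had 115, 133 and 104 CPM in P6 libraries, 122, 149 and 122 CPM in P5 libraries and 94, 134 and 109 CPM in P4 libraries, so the marks overlapped and none of the 3 comparisons passed. For Ccnd3 the values were 68.7, 51.1 and 45 CPM in P6 libraries, 56.5, 56.9 and 50.9 CPM in P5 libraries and 72.5, 66.5 and 62.9 CPM in P4 libraries, again with no call. In P6 against P4 its difference was -0.29 ± 0.14 (adjusted p = 0.135), and Ccnd3 passed as the second member that fell with library totals, with the replicate block and without P6 library 1 (-0.42, -0.3 and -0.47, adjusted p = 0.0368, 0.0359 and 0.0135, edgeR).

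**Figure D4:**
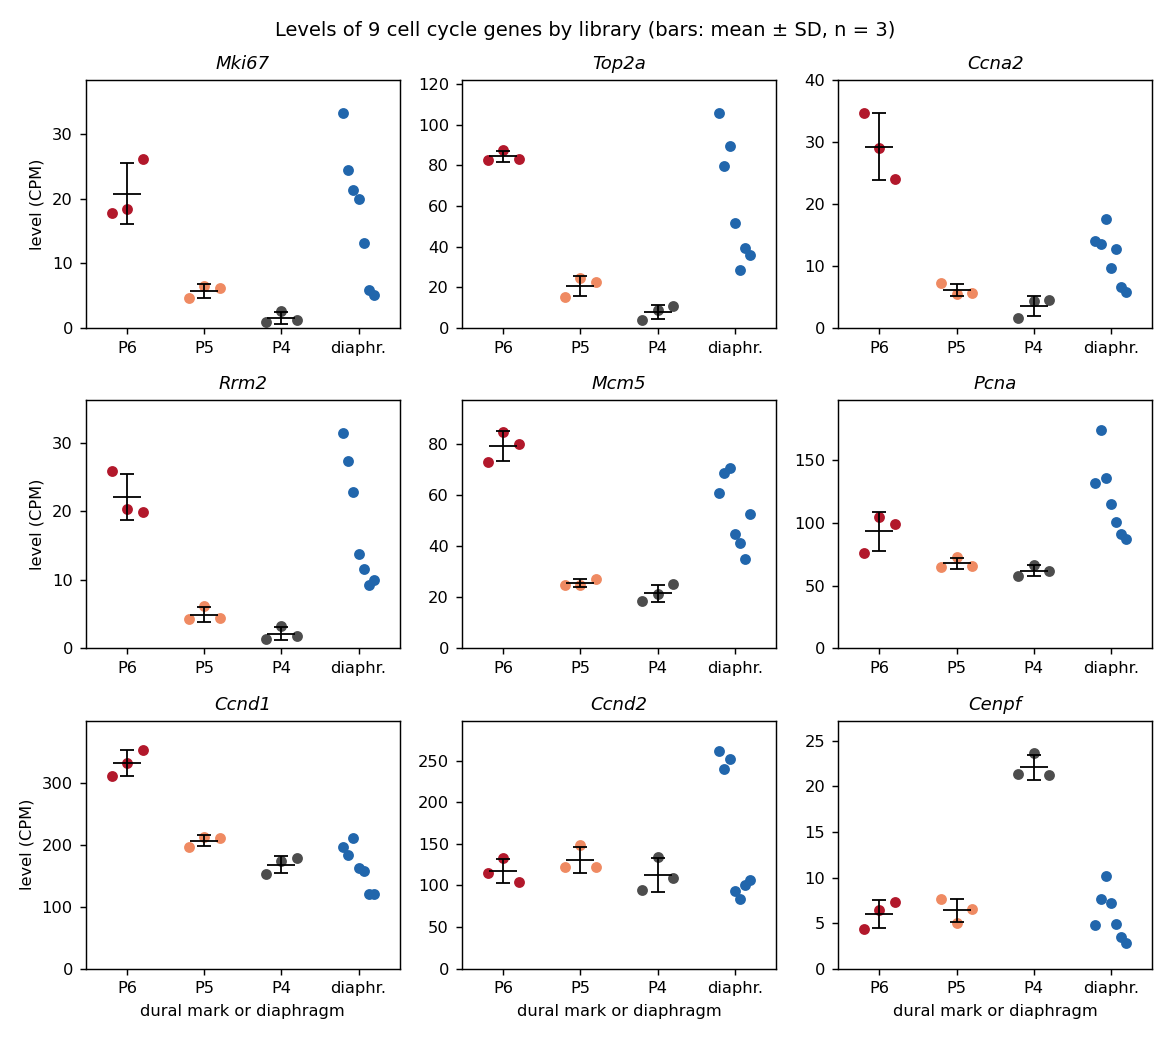
CPM (axes from 0, different between panels) of 9 genes in single libraries (points), with mean and SD of 3 libraries for P6, P5 and P4 and no mean for diaphragm, whose points follow the order 3, 6, 9, 2, 8, 1 and 7. Mki67, Top2a, Ccna2, Rrm2 and Mcm5 stand highest among dural marks in P6, Ccnd2 overlaps between marks, and Cenpf is near 22.1 CPM in P4 and near 6.05 CPM in P6.

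The other genes of the pathway, not members, are given from wider lists. In P6 against P4, where 16.1% of all genes rose, 40 of 45 other mitotic genes tested rose and 5 did not pass. Of 30 other S-phase genes 21 rose and 9 did not pass. Against P5, where 8.54% of all genes rose, 26 and 14 rose in P6 libraries and the rest did not pass. In P5 against P4, where 3.3% of all genes rose, 4 of the mitotic genes rose. Of the S-phase genes 0 passed there in edgeR, with 5 higher at an unadjusted p under 0.05. Racgap1, needed for the cleavage furrow, had 36.6, 35.7 and 30.8 CPM in P6 libraries, against 6.51, 8.45 and 8.03 CPM in P4 libraries. Uhrf1, which keeps DNA methylation at replication forks, had 24.5, 23.3 and 29.2 CPM in P6 libraries, against 3.38, 5.82 and 4.04 CPM in P4 libraries. They rose by 2.16 ± 0.17 and 2.54 ± 0.26 (adjusted p = 7.67e-07 and 7.52e-06, edgeR).

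Of 18 transcription regulators of the cycle that could be tested, 10 rose in P6 against P4, where 16.1% of all genes rose, and 8 did not pass. E2f2, an activating E2F, had 18.3, 22.8 and 18 CPM in P6 libraries, against 2.17, 4.76 and 1.44 CPM in P4 libraries, and rose by 2.82 ± 0.37 (adjusted p = 6.07e-05). Myc, a growth factor response gene, had 46.9, 63.6 and 60.7 CPM in P6 libraries, against 15.4, 10.8 and 10 CPM in P4 libraries, and rose by 2.26 ± 0.19 (adjusted p = 1.37e-06, edgeR). Mycl and E2f1 rose by 3.51 ± 0.5 and 0.82 ± 0.13 (adjusted p = 0.000134 and 0.000372, edgeR).

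Among genes that restrain the cycle, 10 of 22 inhibitors and pocket protein genes tested rose and 1 fell in P6 against P4, where 16.1% of all genes rose and 17.2% fell. Cdkn1a, the p21 inhibitor, had 470, 673 and 513 CPM in P6 libraries, against 194, 215 and 175 CPM in P4 libraries, and rose by 1.51 ± 0.15 (adjusted p = 1.8e-05). Cdkn1c, the p57 inhibitor, fell by 1.44 ± 0.18, with 35, 21 and 19.8 CPM in P6 libraries, against 68.3, 69.9 and 67.1 CPM in P4 libraries (adjusted p = 4.71e-05, edgeR). Btg1, an antiproliferative gene, and Rbl1, the p107 pocket protein that is itself an E2F target, rose by 1.35 ± 0.11 and 0.94 ± 0.13 (adjusted p = 1.31e-06 and 0.00012, edgeR). Of 17 other cyclins and kinases 5 rose, among them Dbf4, Cdk6, Cdk4 and Cdc25c. Against P5, where 8.54% of all genes rose and 9.05% fell, 7 regulators rose and 1 fell, 8 inhibitors rose and 2 fell, and 2 of the other cyclins and kinases rose in P6 libraries. In P5 against P4, where 3.3% of all genes rose, 1 of 18 regulators (Myc), 3 of 22 inhibitors (Btg1, Btg2 and Cdkn1a) and 1 of 17 cyclins and kinases (Dbf4) rose.

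Marker genes moved with the marks too, and their part in the results above was not tested. The counts below are for P6 against P4, where 16.1% of all genes rose and 17.2% fell. Of the 12 macrophage markers 5 rose and 4 fell. The 8 MHC class II and monocyte-derived cell markers summed to 79900 to 83800 CPM in P6, 48900 to 52800 CPM in P5 and 5290 to 6060 CPM in P4 libraries, with 6 of 8 higher in P6 against P4. Ccr2, the receptor that draws monocytes into tissue, had 1640, 1460 and 1510 CPM in P6 libraries, 278, 274 and 248 CPM in P5 libraries and 104, 47.8 and 33.2 CPM in P4 libraries. The monocyte genes Ly6c2 and Plac8 of the same list overlapped between P6 and P4. Ly6c2 had 7.12, 10.1 and 5.04 CPM in P6 and 2.69, 5.82 and 0.886 CPM in P4 libraries. Plac8 had 9.29, 13.5 and 7.19 CPM in P6 and 7.2, 17.8 and 3.54 CPM in P4 libraries. The 5 markers of LYVE1-type macrophages summed to 255 to 288 CPM in P6, 1610 to 2210 CPM in P5 and 2490 to 2840 CPM in P4 libraries, and all 5 fell in P6 against P4. The 8 dendritic cell markers summed to 117 to 156 CPM in P6, 102 to 105 CPM in P5 and 102 to 128 CPM in P4 libraries, while diaphragm libraries 3, 6 and 9 had 564 to 768 CPM and the other diaphragm libraries 61.2 to 161 CPM. The 5 mast cell markers summed to 1.95 to 5.36 CPM in P6, 13.1 to 30.5 CPM in P5 and 34.9 to 148 CPM in P4 libraries. Of the 10 fibroblast markers 9 fell in P6 against P4, of the 7 dendritic cell markers that could be tested 5 rose and 2 fell, and all 4 mast cell markers tested fell. The 9 T and NK cell markers, mostly Cd4, summed to 31.6 to 46.6 CPM in P6, 174 to 229 CPM in P5 and 274 to 310 CPM in P4 libraries. P4 library 3, which held Mpo, also had the highest mitotic sum of the P4 libraries.

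Dura as a whole was then compared with diaphragm, 9 libraries against 7 over 13136 genes in a second edgeR fit. Few cell cycle genes passed: 0 of 38 members rose in dura, where 11.1% of all genes rose, and 2 fell, where 15.1% of all genes fell (26.3% in either direction). At an unadjusted p under 0.05 in edgeR 2 members were higher (Ccnd1 and Cenpf), and DESeq2 called 1 and limma-voom 0. The tissues overlapped for every member, while 2.54% of all genes had every dural library above and 4.38% every one below the diaphragm. Without P6 library 3, 4 members fell, and without diaphragm libraries 1 and 7, 5 fell. The medians were -0.09 for mitotic genes, -0.33 for S-phase genes and -0.44 for D-type cyclins, against -0.01 for all genes tested. The mitotic median turned positive with library totals (0.05), without P4 (0.15), without P5 (0.14) and without P4 library 1 or 4 or diaphragm library 3 (0.02 to 0.08).

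The 2 that fell were Pcna and Ccnd3. Pcna ranged from 57.5 to 105 CPM with a median of 66.3 CPM in dura, against 87 to 174 CPM with a median of 115 CPM in diaphragm, a difference of -0.69 ± 0.16 (adjusted p = 0.00383). Ccnd3 ranged from 45 to 72.5 CPM with a median of 56.9 CPM in dura, against 63.9 to 94 CPM with a median of 84 CPM in diaphragm, a difference of -0.46 ± 0.11 (adjusted p = 0.00402, edgeR). The ranges overlapped for both. When the dural libraries were summed by number, leaving 3, neither passed (adjusted p = 0.0596 and 0.0641), and with library totals in place of TMM factors Ccnd3 did not (adjusted p = 0.0697, edgeR). In the same comparison Ccnd2 ranged from 94 to 149 CPM in dura and from 83.8 to 262 CPM in diaphragm, where libraries 3, 6 and 9 held 262, 240 and 252 CPM and the other 4 between 83.8 and 107 CPM.

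The tissue comparison rested on which dural libraries entered it. Without the 3 P6 libraries, 24 of 38 members fell in dura, where 16.5% of all 13638 genes then tested fell, and 1 rose, where 12.6% rose. They were 12 S-phase genes, 11 mitotic genes and Ccnd3, and the gene that rose was Cenpf (1.3 ± 0.41, adjusted p = 0.03, edgeR). The largest differences were -2.33 ± 0.41 for Rrm2, -2.25 ± 0.56 for Mki67, -2.09 ± 0.44 for Top2a and -1.95 ± 0.33 for Tk1 (adjusted p = 0.000826, 0.00888, 0.00355 and 0.000635, edgeR). With all 9 dural libraries the same genes had differences of -0.9, -0.91, -0.71 and -1.02 and none passed. The P6 libraries held the highest S-phase and mitotic sums in dura, so leaving them out lowered the dural side in advance. Diaphragm libraries 3, 6 and 9, with mitotic sums of 382, 345 and 311 CPM, stayed in. The falls without P6 are therefore not read as a difference between tissues. The diaphragm libraries were not divided in a matching way, since no label gives them a mark, and a comparison of like with like was not tested.

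**Figure D5:**
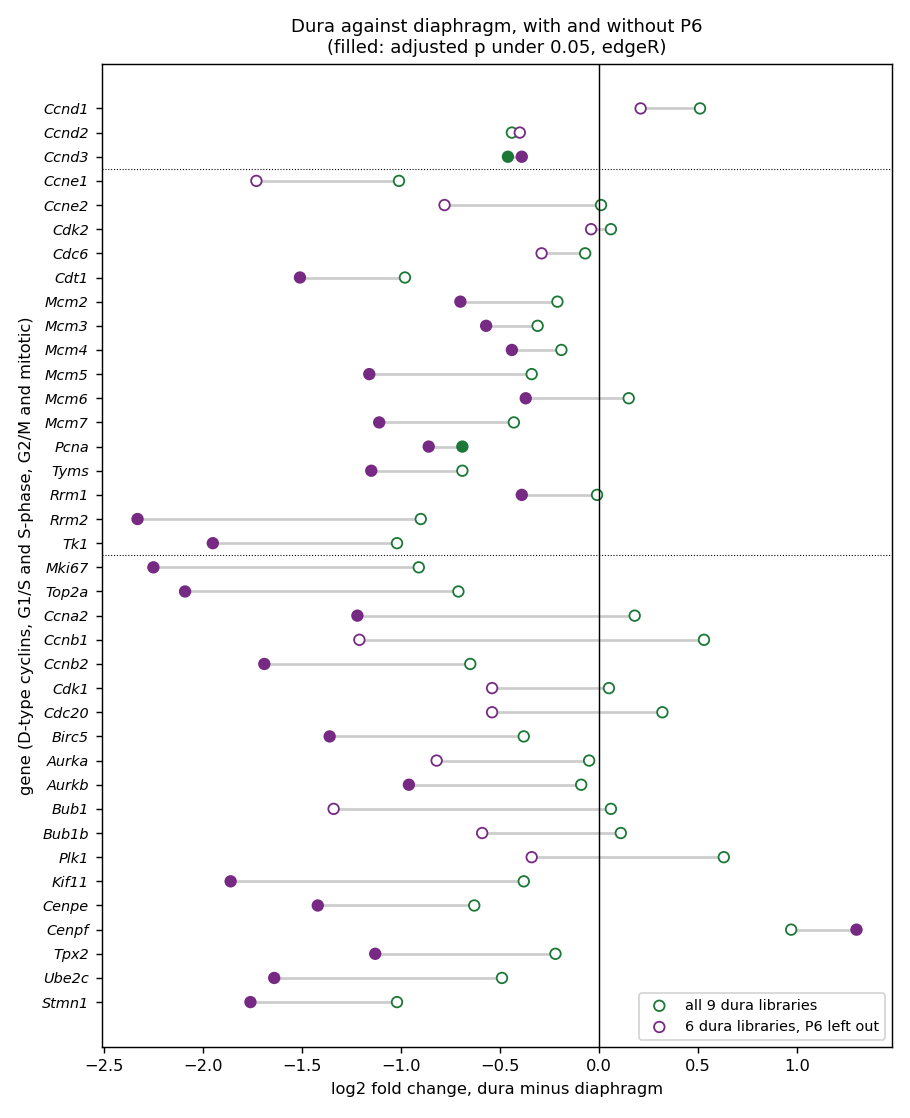
Log2 fold change of dura minus diaphragm for each gene (rows, grouped by class) with all 9 dural libraries (green) and with the 3 P6 libraries left out (purple); filled points passed an adjusted p of 0.05 in edgeR and grey lines join both values of a gene. Leaving out P6 shifts nearly all S-phase and mitotic genes to the left, and 24 genes are filled below 0 without P6, against 2 with all libraries. All 7 diaphragm libraries are in both fits. P6 libraries had the highest S-phase and mitotic sums in dura, so the shift follows from the choice of libraries left out.

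Within the diaphragm the libraries differed too. Mitotic genes were highest in libraries 3, 6 and 9, which also had the highest MHC class II and monocyte-derived marker sums, 84800 to 90000 CPM, and lowest in 1 and 7, where that sum was 1880 and 2180 CPM and the fibroblast sum highest. Rrm2 followed, with 31.4, 27.3 and 22.8 CPM in libraries 3, 6 and 9, 13.7 and 11.6 CPM in 2 and 8, and 9.26 and 9.93 CPM in 1 and 7. Ccnb1 did not spread in this way, with 2.36, 2.74, 1, 2.77, 1.05, 0.953 and 1.77 CPM in the same order, all below the P6 libraries. Ccna2 had 14, 13.5 and 17.6 CPM in libraries 3, 6 and 9, 9.61 and 12.8 CPM in 2 and 8, and 6.63 and 5.78 CPM in 1 and 7, and every diaphragm library was below the lowest P6 library at 24.1 CPM. Because the numbers carry no group in the labels, these differences were not tested.

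The other lists were set against the same shares of all genes, 11.1% higher and 15.1% lower in dura. Of 45 other mitotic genes 3 rose and 2 fell in dura, with Cenpa, Incenp and Anln higher by 0.49, 0.61 and 0.74, and with Kif23 at -0.67 and Cks2, a small partner of cyclin-dependent kinases, at -1.5. Of 30 other S-phase genes 1, Pola2, fell by 0.53 ± 0.16 (adjusted p = 0.0231, edgeR) and 29 did not pass. Among 23 inhibitors and pocket protein genes 2 rose and 9 fell. Btg2, an early response gene that slows growth, rose by 1.16 ± 0.12, with a median of 2790 CPM in dura, against 1120 CPM in diaphragm (adjusted p = 2.28e-06, edgeR), and every dural library lay above every diaphragm library. Gadd45a, Tob1 and Gadd45b, stress and growth-arrest genes, fell by 1.94 ± 0.31, 1.56 ± 0.24 and 1.2 ± 0.2 (adjusted p = 0.000203, 0.00016 and 0.000337, edgeR). Of 18 regulators 1 rose and 3 fell in dura. Lin9, of the MuvB complex, rose by 1.06 ± 0.28, and E2f1, Lin54 (also of MuvB) and Myc fell by 0.87 ± 0.15, 1.1 ± 0.19 and 1.42 ± 0.36 (adjusted p = 0.00965, 0.000438, 0.00045 and 0.00755, edgeR). Of 17 other cyclins and kinases 2 rose, Cdk9 by 0.56 ± 0.07 and Skp2 by 1.08 ± 0.25 (adjusted p = 1.57e-05 and 0.00369, edgeR). Myc ranged from 10 to 63.6 CPM in dura and from 69.3 to 97.1 CPM in diaphragm, without overlap.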

How the data were processed

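Libraries were made with a kit that does not keep strand and read as single ends of 75 nucleotides, per the labels' protocols. A single table was deposited, in which the authors give whole-number counts for 41388 genes in 24 columns. It is called normalised but was read as raw counts, since all values are whole and totals vary from column to column. Tools named in the submitters' processing notes, without a role, are STAR (2.4.0j), featureCounts and DESeq2 (1.20.0), with the build GRCm38. Symbols matched 40254 genes, and coordinates and exon lengths came from GENCODE for GRCm38.

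Of 15 diaphragm columns, 6 carried a prefix and differed from the column of the same number by little more than sampling noise (chi-square per degree of freedom 1.008 to 1.1692, against at least 10.5588 in 108 other pairs). Each such pair was summed and counted as 1 sample. Diaphragm numbers 4 and 5, with 2115 and 1496 counts, were left out. No column was matched to a labelled subset.

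Genes were filtered with filterByExpr, scaled with TMM and tested with edgeR 4.0.16 (quasi-likelihood, robust, two-sided, R 4.3.3), and DESeq2 1.42.0 and limma-voom 3.58.1 served as alternatives, beside other factors, filters and left-out libraries. The test was checked on simulated counts. Members and lists were chosen with earlier results of these data known. Values in every dural library were given for a set of 18 members and for the 3 highest and 3 lowest called members of each comparison. For many of them the diaphragm values were not given. The plan for each other list was up to 4 called genes per comparison with the smallest adjusted p.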

Additional observations from a re-analysis of the deposited data

Results flagged for a closer look

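Among 84 sets of values examined (38 members, the 3 class sums and the mitotic sum without Cenpf in each tissue), 1 had a library far from the rest. Ccne1 had 11 CPM in diaphragm library 6, the next highest library having 4.06 CPM, a gap of 0.664 of the whole range. Chance alone sets about 1 in 20 groups of like libraries apart, a rate that does not hold where marks differ. In dura the libraries of all marks were examined as 1 group, so a library unlike others of its own mark can be missed. Neither Cdt1 nor Plk1 was flagged. In P4 libraries 1, 3 and 4, Cdt1 had 2, 10.3 and 10.1 CPM and Plk1 had 0, 3.19 and 3.16 CPM. The lack of flags in dura therefore does not show that libraries of a mark were alike.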

How the results depend on the processing

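No called member changed sign in any alternative run, but the direction of 2 medians close to 0 did. For D-type cyclins in P6 against P4 it was -0.06 with library totals and -0.03 and -0.04 without P6 library 3 and P4 library 1, against 0.07, and for mitotic genes in dura against diaphragm the values stand with that comparison. Against diaphragm, members that rose in dura numbered 1 with upper-quartile factors, in DESeq2, with the stricter filter, without P4 and without P6, and 2 with library totals, and members that fell numbered 1 with library totals, 4 in DESeq2, 5 in voom, 0 with dura summed per number, 24 without P6 and 5 without diaphragm libraries 1 and 7. The 3449 genes called became 1281 with dura summed per number and 2114 without P5. In P6 against P4, 2 members (Cenpf and Ccnd3) fell with library totals and with the replicate block. In P5 against P4, members that rose numbered 8 in DESeq2, 2 in voom, 9 with no filter, 8 with the replicate block and 2 with only those marks fitted, and the 1011 genes called became 1587 with no filter and 1628 with the block. Leaving out 1 library at a time gave 2947 to 3559 genes, 0 to 1 members higher and 2 to 4 lower for dura against diaphragm; 3727 to 4166, 31 to 33 and 1 to 2 for P6 against P4; 1528 (without P5 library 3) to 2099, 24 to 26 and 0 for P6 against P5; and 545 to 861, 1 to 5 and 1 for P5 against P4, where the genes called were 545, 636 and 585 without P5 library 3, P5 library 4 and P4 library 3. Mki67 kept its call in each of these, while Rrm2, Top2a, Tpx2 and Ube2c did not.

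With library totals the median of all genes moved to 0.124 for dura against diaphragm and to -0.135 and -0.134 for P6 and P5 against P4, and of the genes called 61.2%, 34.9% and 23.3% were higher, against 42.3%, 48.4% and 43.2% with TMM; that share was 54.6% for the tissues with upper-quartile factors and 30.6% for P5 against P4 with only those marks. The dural numbers were not treated as pairing in the main fit, because the labels do not say what they stand for. Between libraries of unlike marks, those of the same number correlated at 0.048 to 0.225 (9 pairs) and others at -0.196 to 0.078 (18 pairs). Of 9 libraries, 8 correlated best with their own number, a hint from the data and not the design. No paired analysis was possible for dura against diaphragm because their numbers name different libraries. The cause of these moves was not tested. Genes under about 1 CPM in P4, such as Ccnb1 and Bub1, rest on few counts that vary between libraries. Bub1 had 4, 28 and 5 counts and Ccnb1 11, 17 and 5 in P4 libraries 1, 3 and 4.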
